A study of Mus musculus with 9 samples.

Results

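N1E-115 cells, a mouse neuroblastoma line, were profiled 4 h and 24 h after they were placed on laminin, and the 6 control siRNA arrays, 3 at each time, are compared here across genes. They are 6 of the 9 arrays of the series and were chosen by their labels for siRNA and time. The other 3 arrays hold cells given siRNA against Hmgn5 and sampled at 24 h, and they served only in the estimate of the spread. All groups are the same line, transfected at 80 nM with either the non-targeting or the Hmgn5 pool, starved of serum overnight in Neurobasal medium and replated on a coat of laminin at 10 µg/ml. Serum at 10% was also recorded for all groups. Cells before replating were not analysed here, so the comparison shows what changed on laminin after the first hours. Starvation, detachment and transfection preceded both times, and the cells at 24 h were further from them. Time on laminin and time since those steps cannot be told apart. Whole cells were lysed, so RNA of neurites and cell bodies was measured together. Separate cultures are not stated for the samples of a group. The p-values therefore set a difference only against the variation among these samples, and that variation may be technical. Values are log2 expression, on which a difference of 1 is a doubling of the signal.

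N1E-115 cells derive from a tumour of the sympathetic lineage, and they stop dividing and put out neurites when serum is withdrawn and an adhesive substrate is given. Laminin, a protein of basement membranes, is bound by integrins, which link it to actin and microtubules in the growing process. Lengthening a neurite calls for new membrane lipid, tubulin and adhesion receptors, and a maturing sympathetic neuron makes noradrenaline, stores it in granules and assembles ion channels.

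The cells carried the marks of their lineage at both times. Of 12 measured sympathetic neuroblastoma markers, 10 ranked above the median gene of the array. They included Hand2, a lineage transcription factor, at 11.21 ± 0.01 at 4 h and 11.06 ± 0.11 at 24 h (log2, mean ± SD, n = 3 each), and Chgb, a granule protein, at 12.98 ± 0.04 and 13.10 ± 0.03. Among defining genes of the lineage, Ddc and Slc6a2 were low: Ddc, the decarboxylase that makes dopamine, stood at 4.86 ± 0.08 and 4.92 ± 0.22, and Slc6a2, the noradrenaline transporter, at 4.29 ± 0.11 and 4.28 ± 0.13. The marker medians of glia, fibroblast, leukocyte and endothelial lists lay between 4.03 and 5.31 at the 2 times. No leukocyte or endothelial marker and 1 of 6 fibroblast markers exceeded the median gene, and the glial list passed it only in Erbb3, a neuregulin receptor (6.87 ± 0.48 and 7.46 ± 0.06). None of these other-cell markers was called with all arrays. Without control 4 h replicate 2, Erbb3 was (0.32, limma adjusted p = 0.0467, and 0.59, adjusted p = 0.13, with it). In bulk RNA, fewer cells of a type and less RNA per cell cannot be told apart.

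One array stood apart before any result is read. Pearson's r between control 4 h replicate 2 and its mates was 0.985 and 0.986 across probe sets, and its mates correlated at 0.995. The array weight was 0.198 for it and at least 0.789 for the others. The median SD of a gene at 4 h was 0.110, and 0.0542 without that array, against 0.0786 at 24 h. Values with and without it are given for several results but not for all, and its cause was not tested.

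Between 4 h and 24 h, 481 genes rose and 482 fell of 22180 tested, at a Benjamini-Hochberg adjusted p under 0.05 in limma (called genes below). Each direction took 2.17% of the genes, 4.34% in all. Changes were modest. The median called rise was 0.50 and the median called fall -0.42, 152 rises and 81 falls exceeded 1.5-fold, and 14 rises and 12 falls exceeded 2-fold. Before adjustment, 4000 genes had p under 0.05. In 21.3% of genes the 3 arrays of one time all lay above the 3 of the other, 2511 higher at 24 h and 2214 lower.

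The balance of rises and falls depended on the scale. With each array centred on its median over the genes tested, 389 rose and 625 fell, so rises were 38.4% of calls. Centred on the median over all probe sets, an alternative added once results were known, 477 rose and 309 fell and rises were 60.7%. The median difference over all genes was 0.02 as deposited, -0.01 under the former and 0.05 under the latter, and the equal split in the deposited values is therefore not read as a balance. Dropping control 4 h replicate 2 gave 586 rises and 652 falls, which held 818 of the 963 calls and 420 more. Leaving out one 24 h array gave between 310 and 407 calls, and leaving out control 4 h replicate 3 gave 588, of which 530 were among the 963. Without Hmgn5 siRNA replicate 1 or 2, which bear on the spread alone, 624 and 646 genes were called, 619 and 638 of them among the 963. Calls kept with any 1 of the 9 arrays left out numbered 147 rises and 106 falls, and the genes described first in each account below are of this kind unless a loss is stated.

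**Figure D1:**
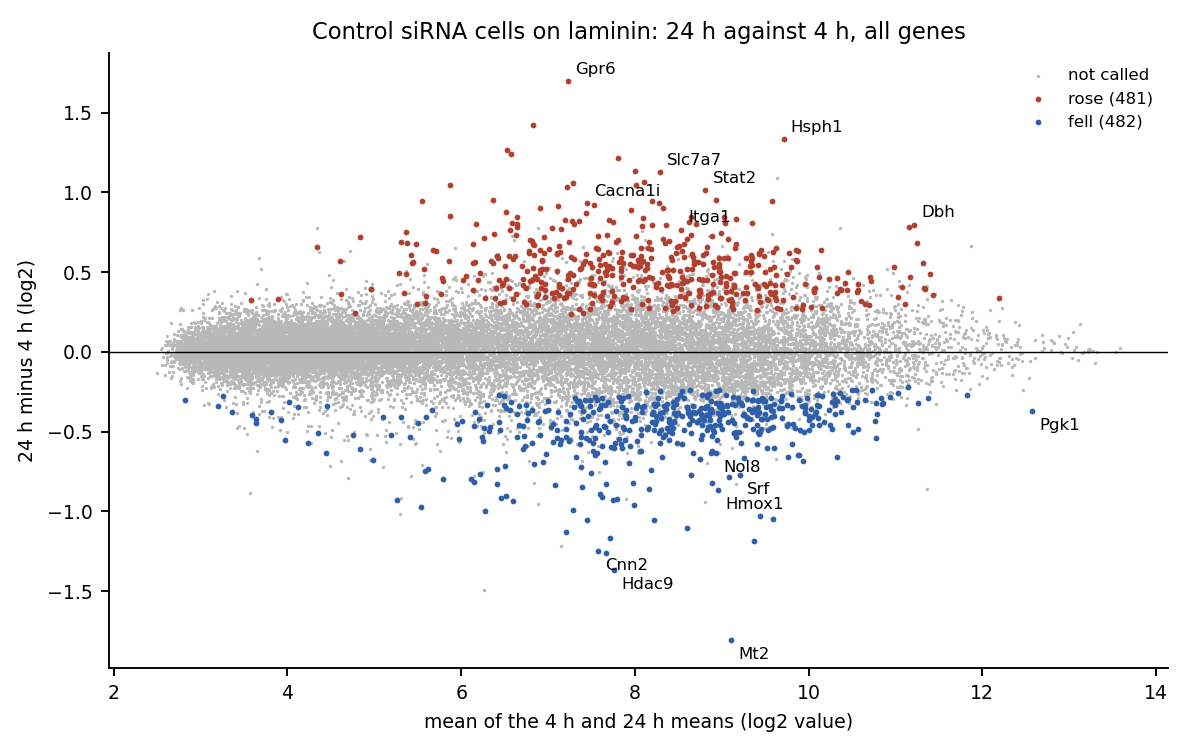
Difference between 24 h and 4 h in control siRNA cells (log2, vertical) against the mean of both times (log2, horizontal) for 22180 genes, with the 481 called rises in red, the 482 called falls in blue and other genes in grey. Most called genes lie within 1 log2 unit of 0, with Gpr6 (1.70) and Mt2 (-1.80) at the extremes among named genes.

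The largest rise belonged to Gpr6, a receptor that couples to the stimulatory G protein and raises cyclic AMP. Its arrays read 6.47, 5.97 and 6.68 at 4 h and 8.05, 7.87 and 8.31 at 24 h. Every 24 h array thus lay more than 1 log2 unit above every 4 h array, and the rise was 1.70 (SE 0.20), or 3.24-fold (limma adjusted p = 0.00279). Hsph1, the Hsp110 chaperone, read 9.19, 8.80 and 9.15 and then 10.39, 10.43 and 10.32 (difference 1.34, SE 0.10, 2.53-fold, adjusted p = 0.000447). Pgf, placenta growth factor, a ligand of the VEGF family, read 7.40, 6.96 and 7.24 and then 8.34, 8.31 and 8.59 (1.22, SE 0.13, 2.32-fold, adjusted p = 0.00209). It was the 1 called gene of 10 measured VEGF ligands and receptors. In each of these genes control 4 h replicate 2 was the lowest array.

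Several other large rises differed in how tight their replicates were. Slc7a7, the light chain of a transporter that exchanges cationic for neutral amino acids, read 7.75, 7.75 and 7.67 at 4 h and 8.81, 8.79 and 8.95 at 24 h (1.13, SE 0.06, 2.19-fold, adjusted p = 0.000111). Here the departing array sat with its mates. Apcdd1, a membrane inhibitor of Wnt signalling, rose from 7.49 ± 0.11 to 8.53 ± 0.08 (log2, mean ± SD, n = 3). Brinp2, a neural protein induced by retinoic acid, rose from 7.57 ± 0.18 to 8.64 ± 0.09. Parp3, which adds ADP-ribose at DNA breaks, rose from 7.44 ± 0.15 to 8.57 ± 0.09, and Fam183b from 5.90 ± 0.19 to 7.16 ± 0.14. Cdkl1, a cyclin-dependent kinase-like kinase, rose from 5.89 ± 0.07 to 6.85 ± 0.33, with control 24 h replicate 3 at 6.47 below both mates. Ifit1 and Rnf112 are also among the 15 largest rises and their calls rested on the full set of arrays. With 1 array left out, Ifit1 stayed called only without Hmgn5 siRNA replicate 3 (limma adjusted p = 0.0406, up to 0.114). Rnf112, whose 4 h arrays read 7.15, 6.09 and 7.04, stayed called when control 4 h replicate 1 or 2 was the array omitted and in no other case (limma adjusted p = 0.0374, up to 0.128).

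The largest fall was that of Mt2, a metallothionein that binds zinc and copper. It read 9.97, 10.09 and 9.98 at 4 h and 8.08, 8.17 and 8.38 at 24 h. No array came near the other group, and the fall of 1.80 on the log2 scale (SE 0.08) was 3.49-fold (limma adjusted p = 5.06e-05). Hdac9, a class IIa histone deacetylase that restrains MEF2 factors, read 8.35, 8.60 and 8.38 and then 7.11, 7.22 and 6.90 (difference -1.37, SE 0.10, adjusted p = 0.000436). Cnn2, a calponin bound to actin, read 8.33, 8.06 and 8.20 and then 6.84, 6.97 and 7.04 (-1.25, SE 0.09, adjusted p = 0.000436). Capn6, a calpain relative without protease activity that stabilises microtubules, read 9.97, 10.07 and 9.84 and then 8.91, 8.79 and 8.63 (-1.18, SE 0.12, adjusted p = 0.00166).

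Several of the other large falls encode secreted or signalling proteins. Pla2g2e is a secreted phospholipase (8.30 ± 0.11 to 7.14 ± 0.12), Lcn2 carries iron-binding siderophores (7.77 ± 0.17 to 6.64 ± 0.14), and Tcn2 carries vitamin B12 (7.79 ± 0.07 to 6.80 ± 0.11; log2, mean ± SD, n = 3 each). Pde5a, the phosphodiesterase that breaks down cyclic GMP, fell from 9.96 ± 0.06 to 8.93 ± 0.09. Agtr2, the type 2 angiotensin receptor, fell from 7.07 ± 0.19 to 6.13 ± 0.15. Gnpnat1, an enzyme of the hexosamine pathway, fell from 9.15 ± 0.22 to 8.05 ± 0.16. Taf4b, a variant subunit of the TFIID initiation complex, fell from 8.48 ± 0.18 to 7.52 ± 0.21. Dcx, the doublecortin that bundles microtubules in migrating neurons, fell from 6.78 ± 0.29 to 5.78 ± 0.11, and Mamdc2, Nxf7 and Cox7a1 fell by 1.06, 1.05 and 1.05. The 15 falls named as largest, Mt2 and Hdac9 to Agtr2, kept their call with any 1 array left out. They pass over 2 fallen genes with clone symbols, which were not examined this way.

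**Figure D2:**
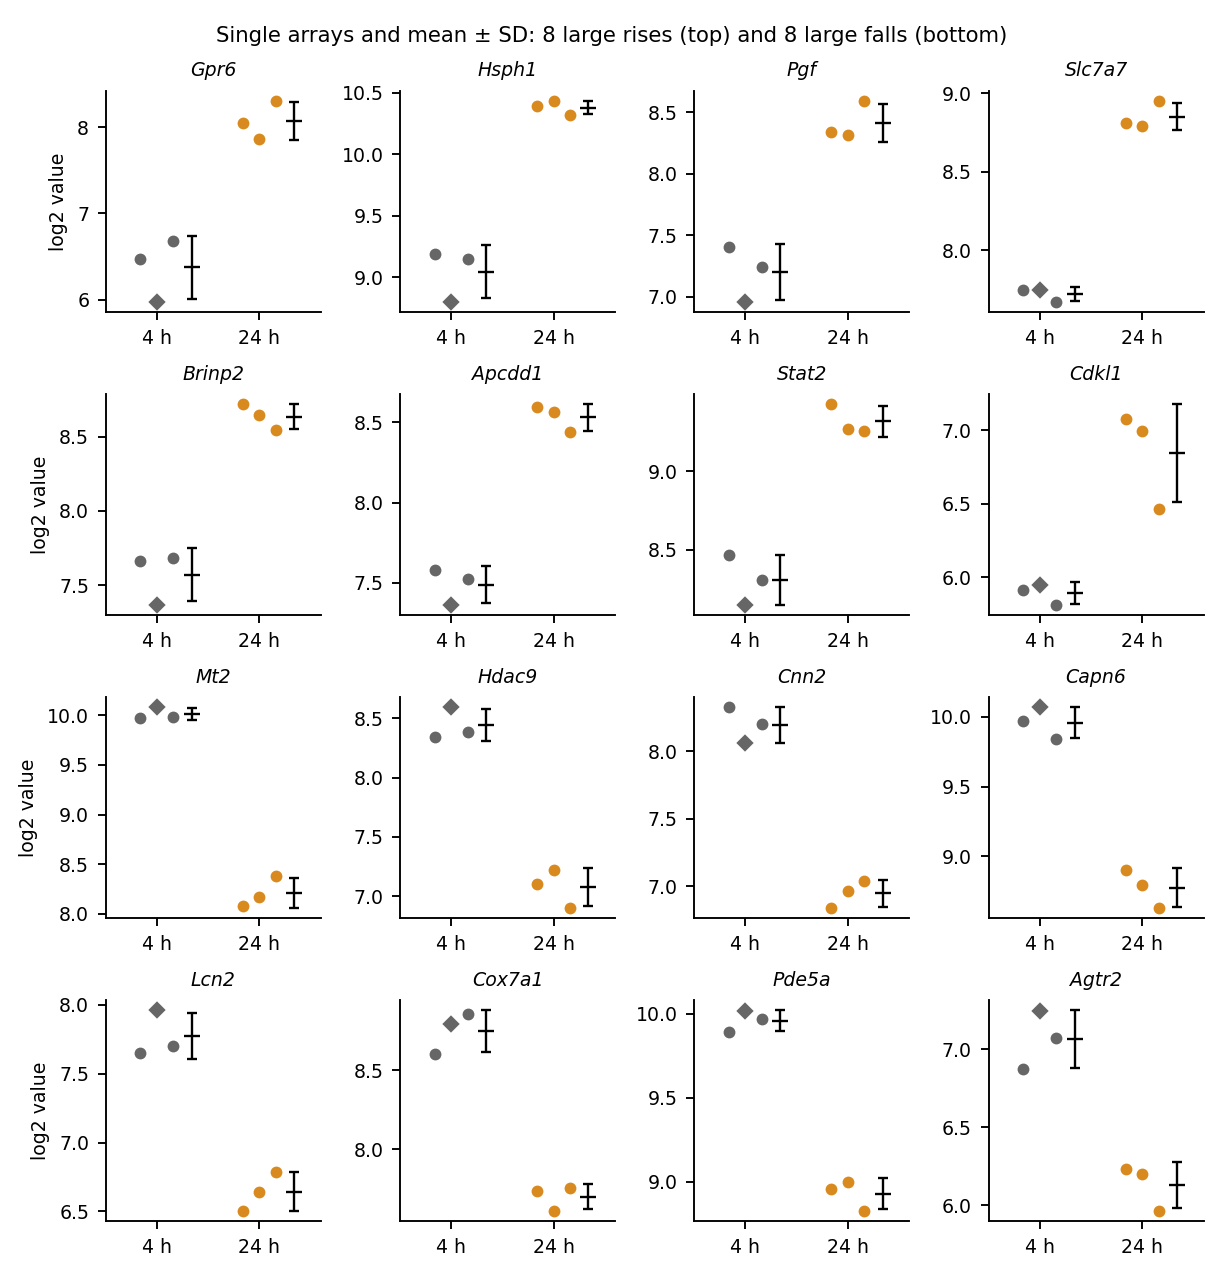
Log2 value on each control array for 8 of the largest rises (upper 2 rows) and 8 of the largest falls (lower 2 rows), at 4 h in grey and at 24 h in orange, with the mean ± SD of each group of 3 in black and control 4 h replicate 2 as a diamond. Each panel has its own vertical range and none starts at 0. In all 16 genes the groups are apart, and Cdkl1 has 1 lower array at 24 h.

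Genes were then read in 50 lists with measured members, of 51 drawn up, chosen with earlier results of these data known, and the plot of list members shows those with at least 3 called genes. Counts should be read against the 2.17% of all genes called in each direction and the median difference of 0.02 over all genes. The lists with most rises were cholesterol synthesis (11 of 22), cytosolic chaperones (10 of 42) and interferon-stimulated genes (9 of 45). Those with most falls were ribosome biogenesis (13 of 54) and endoplasmic reticulum chaperones (10 of 39).

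**Figure D3:**
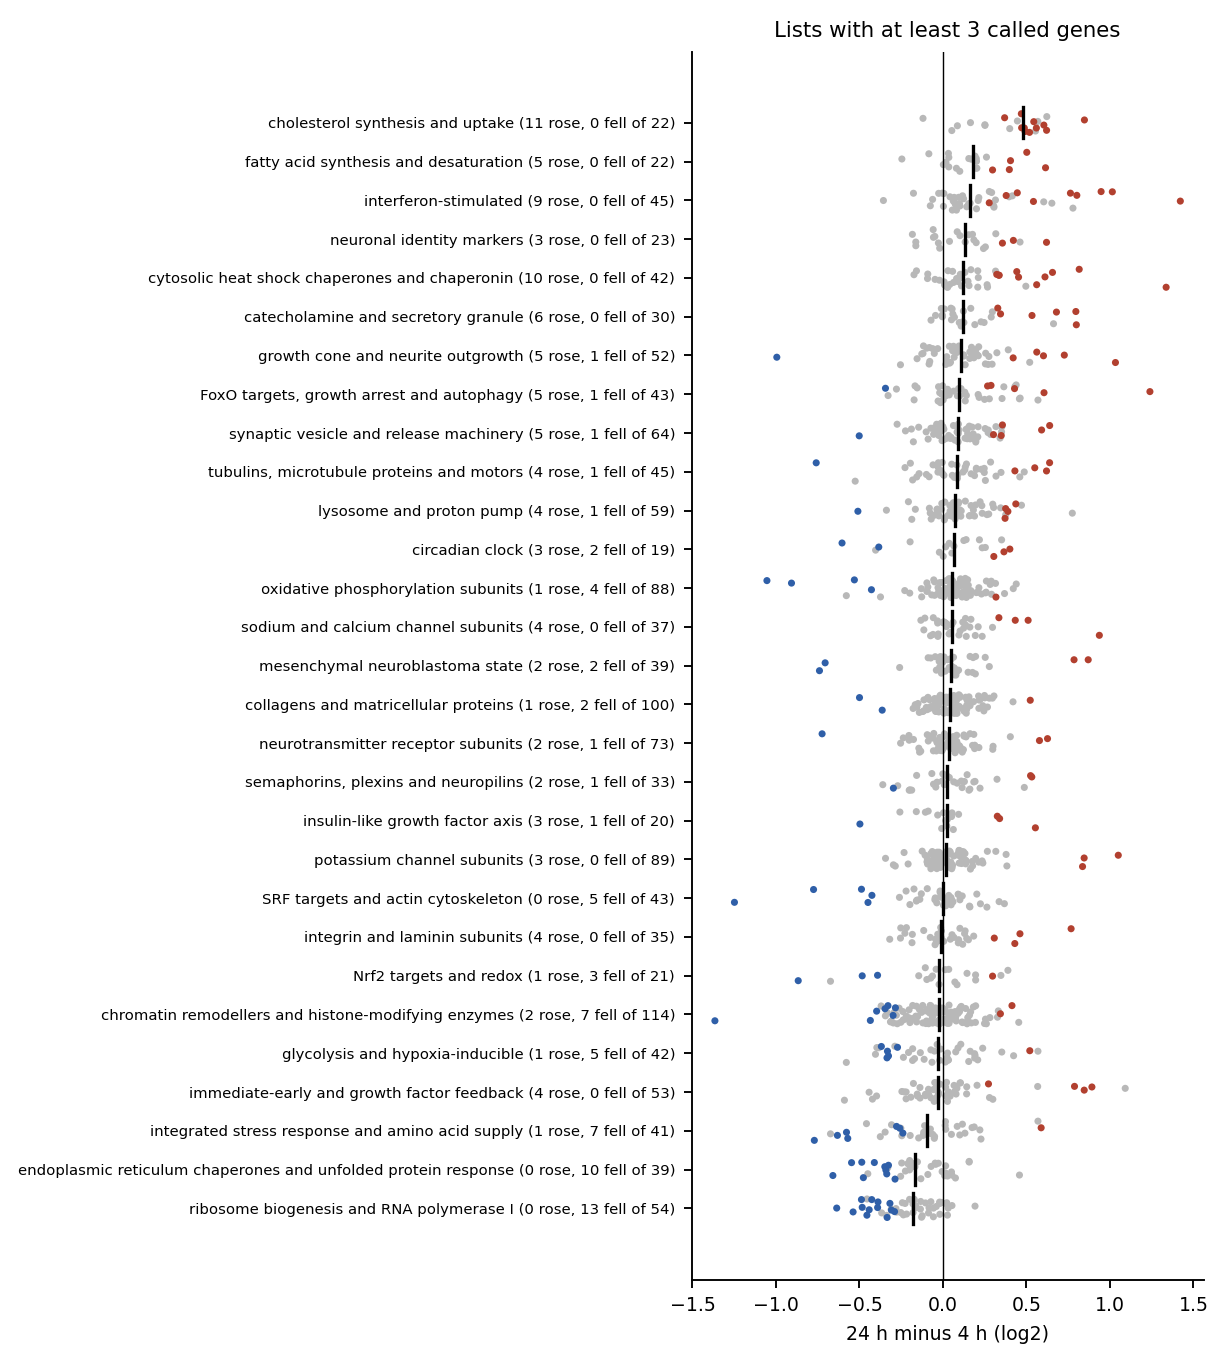
Difference between 24 h and 4 h (log2) of each measured gene in the 29 lists that hold at least 3 called genes, with called rises in red, called falls in blue, other genes in grey and the list median as a black bar. Cholesterol synthesis has the highest median (0.48) and ribosome biogenesis the lowest (-0.18).

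Of 54 measured genes of ribosome biogenesis and RNA polymerase I, 13 fell and none rose, 48 lay below 0, and the median difference was -0.18. In 31 of the 54 genes every 24 h array lay below every 4 h array, and in none did the reverse hold. Of all 22180 genes, 2214 were apart in the first way and 2511 in the reverse. The strongest calls were of nucleolar factors that process ribosomal RNA. Nol8 read 9.25, 9.28 and 9.22 at 4 h and 8.56, 8.71 and 8.58 at 24 h (-0.64, SE 0.06, limma adjusted p = 0.00132). Heatr1, a component of the small-subunit processome, read 8.53, 8.55 and 8.55 and then 8.09, 8.02 and 8.04 (-0.49, SE 0.06, adjusted p = 0.00321). Wdr75 and Utp20, of the same processome, fell by 0.46 and 0.43 (SE 0.06 each). In Nol8, Wdr75 and Utp20 control 4 h replicate 2 was the highest array.

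The list as a whole moved with that array. The list score, the mean over genes of an array's value minus the 24 h mean, was 0.30 and 0.25 on control 4 h replicates 1 and 3 and 0.06 on replicate 2. Without replicate 2, 25 members fell and the median was -0.27. Among those called only then were Polr1b, the second largest subunit of RNA polymerase I (-0.39 without it, -0.31 with it), Ubtf, which loads that polymerase on ribosomal genes (-0.38 and -0.28), and Nop56 of the box C/D small nucleolar particles (-0.26 and -0.17), all named after their values were seen. Centred over all probe sets 8 fell, and with any 1 array left out between 7 and 25 did. Of 64 cytosolic ribosomal protein genes none was called by limma, and the median was 0.04. The times were apart in 7 of them, and in 21.3% of all genes. Rps29 (0.20, adjusted p = 0.108) and Rps25 (0.23, adjusted p = 0.144) had the smallest p. Of 82 small nucleolar and Cajal body RNAs, which guide the modification of ribosomal and spliceosomal RNA, 2 fell and the median was -0.19. The array values behind that median were scattered, with list scores of -0.22 on control 24 h replicate 3 and 0.13 and 0.08 on its mates. Snora69 fell by 0.49 (adjusted p = 0.0202), a call lost without any 1 of the 24 h arrays (up to 0.0779), and the call of Snord42b (-0.55, adjusted p = 0.0392) was lost without any 1 of the 9 (up to 0.0835).

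A few genes of the actin cytoskeleton and of serum response factor fell, and a few integrin subunits rose. Of 43 measured SRF targets and actin genes, 5 fell and none rose, and the median was 0.00. With any 1 array left out between 3 and 5 fell. Srf itself read 9.60, 9.61 and 9.60 at 4 h and 8.82, 8.88 and 8.77 at 24 h, an SD of 0.01 at 4 h that takes in the departing array (-0.77, SE 0.06, limma adjusted p = 0.000547). Zyx, a focal adhesion protein that responds to tension, read 9.86, 9.72 and 9.77 and then 9.24, 9.21 and 9.43 (-0.49, SE 0.07, adjusted p = 0.00814). Vcl, vinculin of the same adhesions, fell by 0.43 (adjusted p = 0.0108, and 0.0503 without control 24 h replicate 2). Cnn2, given above, had the largest fall of the list.

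Of 35 integrin and laminin subunits, 4 rose and none fell, with a median of -0.01 that was 0.03 when arrays were centred over all probe sets. Itga1, whose dimer with the beta 1 chain binds collagen and laminin, read 8.16, 8.18 and 8.11 at 4 h and 8.99, 8.85 and 8.90 at 24 h (0.77, SE 0.06, 1.70-fold, adjusted p = 0.000447). Itgb3, the beta chain of a vitronectin receptor, read 8.26, 8.10 and 8.15 and then 8.61, 8.62 and 8.66 (0.46, SE 0.06, adjusted p = 0.00445). Itga3, the alpha chain of a laminin receptor, rose from 8.05 ± 0.07 to 8.48 ± 0.06 (log2, mean ± SD, n = 3; adjusted p = 0.00957). Lama2, a laminin chain, rose by 0.31 (limma adjusted p = 0.0276), a call lost without control 4 h replicate 1 or 3, any 24 h array or Hmgn5 siRNA replicate 1 (up to 0.101). Collagens and matricellular proteins gave 1 rise and 2 falls of 100. Sparcl1, a matricellular protein of the nervous system, rose by 0.52 (adjusted p = 0.0215, up to 0.0609 without control 4 h replicate 1 or control 24 h replicate 1 or 2). Fbln2, a matrix fibulin, fell by 0.50 (adjusted p = 0.0139, up to 0.0614 without control 24 h replicate 1 or 2).

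Some genes of noradrenaline synthesis and storage rose, Dbh, Slc18a1 and Th among them. Of 30 measured genes for catecholamines and secretory granules 6 rose and none fell, 24 lay above 0, and the median was 0.12. Dbh, the enzyme that turns dopamine into noradrenaline, read 10.93, 10.55 and 10.97 at 4 h and 11.64, 11.53 and 11.68 at 24 h (0.80, SE 0.11, 1.74-fold, limma adjusted p = 0.00534). Slc18a1, a vesicular monoamine transporter, read 7.97, 7.87 and 8.03 and then 8.73, 8.60 and 8.93 (0.80, SE 0.10, 1.74-fold, adjusted p = 0.00398). Th, tyrosine hydroxylase, the rate-limiting enzyme, read 10.80, 10.58 and 10.76 and then 11.29, 11.19 and 11.25 (0.53, SE 0.10, adjusted p = 0.0188), a call lost without any 1 of the 24 h arrays (up to 0.0774). Scg2, a granin of the granule core, rose by 0.34 (adjusted p = 0.0135, up to 0.0556 without control 24 h replicate 2 or 3). Pcsk1n, which inhibits prohormone processing (0.68), and Pam, which amidates peptides (0.33), made up the 6 and were named after their values were seen. With any 1 array left out between 2 and 7 of the list rose. Chga, a granin, read 11.97, 10.72 and 11.91 at 4 h and 12.24, 12.19 and 12.15 at 24 h. It was called only without control 4 h replicate 2 (0.25, adjusted p = 0.0429, and 0.66, adjusted p = 0.233, with it).

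The transcription factors of the adrenergic state did not show a called change. None of 19 was called by limma and the median was 0.05. The groups were apart in 5, as they were in 21.3% of all genes. Tfap2b (0.31, adjusted p = 0.0555) and Gata3 (0.19, adjusted p = 0.165) had the smallest p. In the mesenchymal neuroblastoma list 2 of 39 genes rose and 2 fell. Anxa2, an annexin at the membrane, read 8.55, 8.65 and 8.48 and then 7.78, 7.85 and 7.83 (-0.74, SE 0.06, adjusted p = 0.00065). Wwtr1, the transcriptional coactivator TAZ, fell by 0.71 (SE 0.09, adjusted p = 0.00398), and Maml2, a Notch coactivator, rose by 0.87 (SE 0.10, adjusted p = 0.00232). S100a6, a calcium-binding protein, rose by 0.79 (adjusted p = 0.0215, up to 0.0813 without any 1 of the 24 h arrays).

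Sodium, calcium and potassium channel subunits that were called with all arrays, as deposited, all rose. Among 37 sodium and calcium channel subunits 4 rose and none fell. Cacna1i, a low-voltage-activated T-type calcium channel, read 7.10, 6.85 and 6.99 at 4 h and 7.87, 7.97 and 7.91 at 24 h (0.94, SE 0.14, 1.91-fold, limma adjusted p = 0.00783). Scn3a, the brain sodium channel of early neurons, read 8.66, 8.71 and 8.77 and then 9.31, 9.15 and 9.21 (0.51, SE 0.08, adjusted p = 0.00864). The auxiliary subunits Scn3b (0.34, adjusted p = 0.0177) and Cacng3 (0.43, adjusted p = 0.0234) rose too. The Scn3b call failed without control 4 h replicate 3 or control 24 h replicate 2 or 3 (up to 0.0685) and the Cacng3 call without any 24 h array (up to 0.0878).

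Among 89 potassium channel subunits 3 rose and none fell, a share of 3.37%. With each array centred on its median over the genes tested, 3 rose and 1 fell. Kcnn3, a calcium-activated channel of the afterhyperpolarisation, read 8.76, 8.80 and 8.69 at 4 h and 9.55, 9.44 and 9.76 at 24 h (0.84, SE 0.09, adjusted p = 0.00211). Kcnab1, an auxiliary subunit of voltage-gated channels, rose by 0.85 (SE 0.08, adjusted p = 0.000766), and Kcnh7, an ether-a-go-go related channel, by 1.05 (SE 0.13, adjusted p = 0.00366). Of 73 neurotransmitter receptor subunits 2 rose and 1 fell. The ATP-gated channel genes moved in opposite directions: P2rx4 rose by 0.58 (SE 0.06, adjusted p = 0.00164), and P2rx3, typical of sensory neurons, fell by 0.72 (adjusted p = 0.0137, up to 0.0585 without any 1 of the 24 h arrays). Gria2, the AMPA receptor subunit that sets calcium permeability, rose by 0.63 (adjusted p = 0.0239). Its call failed without control 4 h replicate 1 or 3 or any 24 h array (up to 0.094).

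Synaptotagmins, the calcium sensors of vesicle release, were divided. Of 64 genes of vesicles and release 5 rose and 1 fell, and between 1 and 7 rose with any 1 array left out. Rab3c, a GTPase on synaptic vesicles, read 9.14, 9.08 and 9.17 at 4 h and 9.74, 9.76 and 9.81 at 24 h (0.64, SE 0.06, limma adjusted p = 0.000626), while a dimmer probe set of the gene gave 0.09. Syt1, the sensor of fast release, read 11.22, 11.35 and 11.19 and then 11.64, 11.55 and 11.64 (0.36, SE 0.06, adjusted p = 0.0165). Syt4, a synaptotagmin that does not bind calcium in its first domain, read 10.07, 10.31 and 10.23 and then 9.63, 9.63 and 9.85 (-0.50, SE 0.09, adjusted p = 0.0165). Syt17 rose by 0.59 (adjusted p = 0.0123). The Syt17 call failed without control 24 h replicate 1 or 2 (up to 0.057), the Syt1 call without control 4 h replicate 3 or control 24 h replicate 1 or 3 (up to 0.0697), and the Syt4 call without control 4 h replicate 3 or control 24 h replicate 1 or 2 (up to 0.0727).

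**Figure D4:**
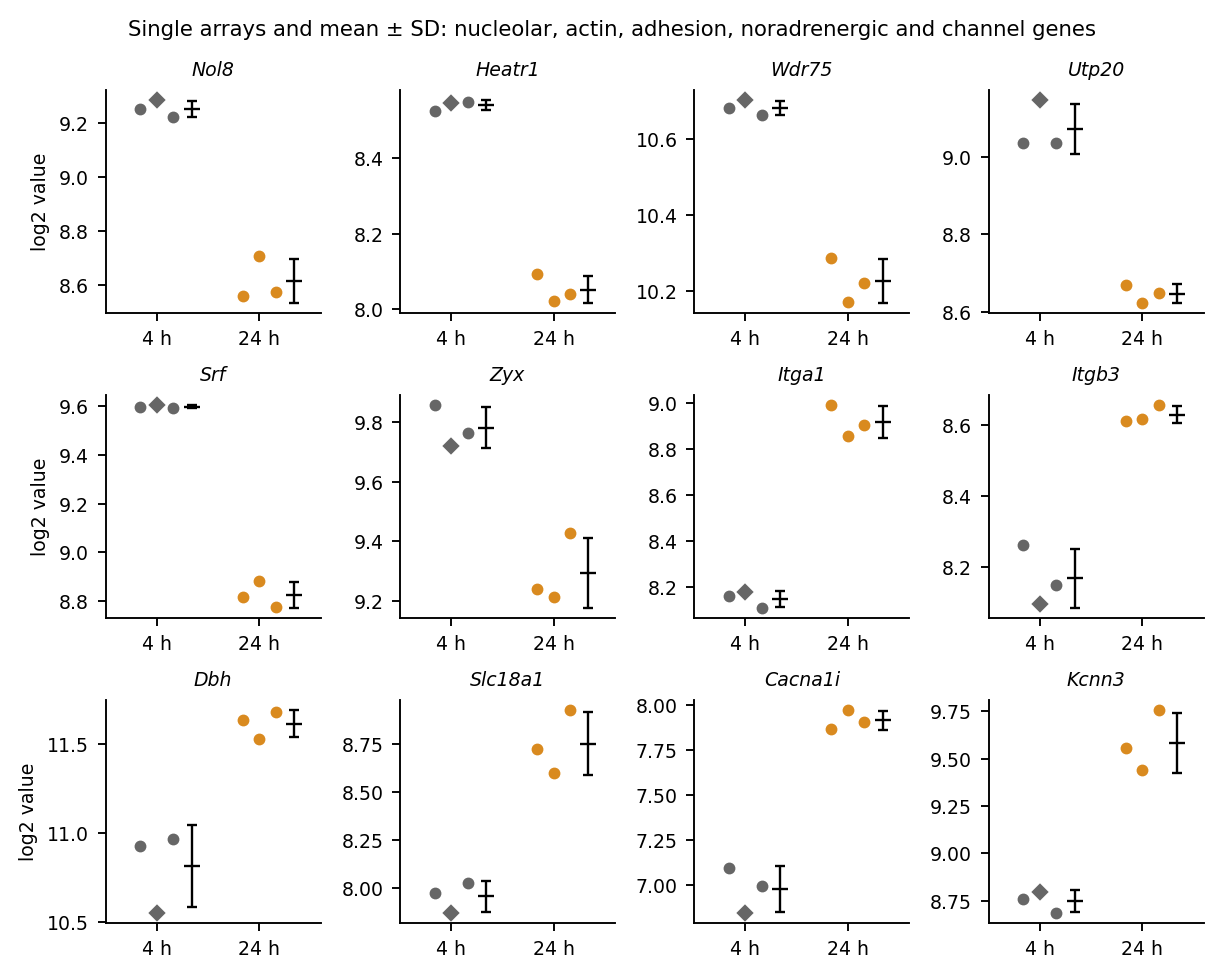
Log2 value on each control array for nucleolar genes (Nol8, Heatr1, Wdr75, Utp20), Srf and its target Zyx, integrin subunits (Itga1, Itgb3), noradrenergic genes (Dbh, Slc18a1) and channels (Cacna1i, Kcnn3), at 4 h in grey and 24 h in orange, with mean ± SD (n = 3) and control 4 h replicate 2 as a diamond. Each panel has its own vertical range and none starts at 0. The 4 nucleolar genes and Srf, Zyx fell and the other 6 rose, with no overlap between times.

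Genes of neurite growth gave 5 rises and 1 fall of 52, with a median of 0.11, and between 1 and 6 rises with any 1 array left out. Stmn4, a stathmin that binds tubulin, read 6.71, 6.47 and 6.94 at 4 h and 7.91, 7.74 and 7.57 at 24 h (1.03, SE 0.13, limma adjusted p = 0.00386), and a dimmer probe set of it gave 0.23. Nptx1, a secreted pentraxin that clusters AMPA receptors, rose by 0.73 (adjusted p = 0.0124, and 0.0574 without control 24 h replicate 1). In the tubulin and motor list, with 4 rises and 1 fall of 45, Map2 of dendritic microtubules read 8.59, 8.54 and 8.40 and then 9.12, 9.08 and 9.20 (0.62, SE 0.07, adjusted p = 0.00279). Kif21b, a kinesin that limits microtubule growth, went the other way, from 7.88, 7.90 and 7.85 to 6.95, 7.18 and 7.22 (-0.76, SE 0.07, adjusted p = 0.00129). Tubb6, a beta tubulin, fell only without control 4 h replicate 2 (-0.96, adjusted p = 0.0302, and -0.53, adjusted p = 0.446, with it).

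Guidance genes gave few calls. Of 33 semaphorins, plexins and neuropilins 2 rose and 1 fell. Sema6d, a transmembrane semaphorin, read 9.63, 9.44 and 9.52 at 4 h and 10.06, 10.05 and 10.07 at 24 h (0.53, SE 0.06, limma adjusted p = 0.00265). Sema4f rose by 0.52 (adjusted p = 0.0396) and Plxna1, a plexin, fell by 0.30 (adjusted p = 0.0297). The Sema4f call failed in all single-array omissions but control 4 h replicates 2 and 3 (up to 0.143), and the Plxna1 call in all but control 4 h replicates 2 and 3 and Hmgn5 siRNA replicate 3 (up to 0.105). None of 41 Eph, ephrin, Slit, Robo and netrin genes was called, with 11 of them apart between times, as were 21.3% of all genes. Without control 4 h replicate 2, Slit2, a repellent ligand, rose (0.36, adjusted p = 0.00818, and 0.29, adjusted p = 0.0519, with it) and the ephrin receptor Epha8 fell (-0.68, adjusted p = 0.00735, and -0.50, adjusted p = 0.0906, with it).

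Of 20 genes of the insulin-like growth factor axis 3 rose and 1 fell (15% and 5%, against 2.17% of all genes in each direction). With any 1 array left out between 0 and 3 rose. Of 23 neurotrophin, GDNF and gp130 receptors and ligands 1 rose and 1 fell. The insulin and IGF-1 receptors rose together: Insr read 8.77, 8.84 and 8.85 at 4 h and 9.18, 9.14 and 9.15 at 24 h (0.34, limma adjusted p = 0.0132), and Igf1r rose by 0.33 (adjusted p = 0.0278). Their adaptor Irs1 rose by 0.55 (adjusted p = 0.0285, with 0.18 in a dimmer probe set), and Igfbp5, a secreted binding protein, fell by 0.50 (adjusted p = 0.0491). The Insr call failed without control 24 h replicate 1 (0.0563). The calls of Igf1r, Irs1 and Igfbp5 were each lost without any 1 of the 24 h arrays, control 4 h replicate 3 or Hmgn5 siRNA replicate 1, and in some cases others (up to 0.159). Ngfr, the p75 neurotrophin receptor, read 9.03, 8.53 and 8.93 and then 9.47, 9.49 and 9.49 (0.65, adjusted p = 0.0182), and Il6st, the gp130 chain of cytokine receptors, fell by 0.33 (adjusted p = 0.0175). Each of these was lost without control 24 h replicate 1 or 2, Ngfr also without replicate 3 and Il6st also without control 4 h replicate 3 (up to 0.0727). Hey2, a repressor downstream of Notch, fell by 0.49 (adjusted p = 0.0215, up to 0.0565 without replicate 1 of either time).

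The calls among immediate-early and feedback genes changed with control 4 h replicate 2. With all arrays 4 of 53 rose and none fell, with a median of -0.03 that was 0.01 when centred over all probe sets. Btg2, an antiproliferative factor, read 7.58, 7.87 and 7.63 at 4 h and 8.48, 8.36 and 8.60 at 24 h (0.79, SE 0.10, limma adjusted p = 0.00358). Dusp8, a phosphatase of stress-activated kinases, rose by 0.89 (SE 0.13, adjusted p = 0.00799). Dusp1, of the same family, rose by 0.85 (adjusted p = 0.0252, up to 0.0737 without control 4 h replicate 1 or 2 or any 24 h array). Etv1, an ETS factor, rose by 0.27 (adjusted p = 0.044, up to 0.147), with 0.08 in a dimmer probe set. Its call was lost in all single-array omissions but control 4 h replicate 2. Without that array 4 rose and 8 fell and the median was -0.09. The 8 were Arc, Dusp5, Gadd45g, Hbegf, Fosb, Spred1, Errfi1 and Plaur, named after their values were seen. Arc, a cytoskeletal protein induced by activity, read 9.51, 8.87 and 9.53 at 4 h and 8.92, 8.93 and 8.87 at 24 h, so the departing array lay at the 24 h level and its mates above (-0.61 without it, adjusted p = 0.00139, and -0.40, adjusted p = 0.195, with it). Jun, of the AP-1 factors, read 9.56, 8.33 and 9.39 and then 10.16, 10.02 and 10.37, and it passed only without the array (0.71, adjusted p = 0.01, and 1.09, adjusted p = 0.0508, with it).

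Among cytosolic chaperones 10 of 42 rose, and among genes of the endoplasmic reticulum 10 of 39 fell. Heat shock factor binds a repeat of a 5-base unit, and the reticulum's stress factors bind a longer bipartite element. Both were searched on either strand in RefSeq promoter windows of build GRCm38.p6, from 250 bases before to 50 after a start, of which 16918 of the 22180 genes had at least one. The heat shock element was spelled GAANNTTCNNGAA and the reticulum element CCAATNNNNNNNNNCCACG. Below, capitals mark the match, and the stretches are shown because they belong to called genes of the 2 lists.
Hspe1, heat shock element, chr1:55088029-55088106, plus strand: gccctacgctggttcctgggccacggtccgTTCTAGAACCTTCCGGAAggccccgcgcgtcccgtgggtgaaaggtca
Chordc1, heat shock element, chr9:18292233-18292275, plus strand: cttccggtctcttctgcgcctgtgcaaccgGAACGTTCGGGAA
Hsph1, heat shock element, chr5:149636288-149636317, minus strand: gagtaaaatgctgcagaTTCTGGAAAGTTC
Hspa5, reticulum element, chr2:34771995-34772073, plus strand: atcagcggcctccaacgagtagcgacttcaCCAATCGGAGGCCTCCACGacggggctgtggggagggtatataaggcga
Dnajc3, reticulum element, chr14:118937797-118937875, plus strand: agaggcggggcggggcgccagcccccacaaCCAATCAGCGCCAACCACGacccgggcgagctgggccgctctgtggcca

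The heat shock element lay in the windows of 3 of the 9 called cytosolic chaperone genes that had one, and of 5 of 38 in that list. It lay in 0.551% of all 20520 windows, 1.49% of the 537 windows of risen genes and 0.225% of the 445 of fallen genes. These shares count windows, and a gene can have more than 1, as Hsph1 did. The reticulum element lay in the windows of 2 of 8 called reticulum genes and 10 of 34 in that list, and in 0.151% of all windows. A match is a string of letters and says nothing of binding. Of the 42 cytosolic chaperones 10 rose and none fell (median 0.12). Hspa4l, of the Hsp110 family, read 8.51, 8.73 and 8.61 at 4 h and 9.15, 9.16 and 9.22 at 24 h (0.56, SE 0.07, limma adjusted p = 0.00382). Ahsa2 and Ahsa1, which activate Hsp90, rose by 0.82 (SE 0.08) and 0.61 (SE 0.09). With any 1 array left out between 4 and 8 of the list were called.

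Of the 39 reticulum genes 10 fell and none rose (median -0.17). Dnajb9, a co-chaperone of the lumen, read 10.62, 10.66 and 10.71 and then 9.99, 9.98 and 10.03, and Atf6, the membrane-bound stress sensor, 10.24, 10.16 and 10.33 and then 9.85, 9.85 and 9.80. These were falls of 0.66 and 0.41 (SE 0.06 each, limma adjusted p = 0.000927 and 0.0079). Manf and Herpud1 fell by 0.55 and 0.48. The list score was 0.23 and 0.20 on control 4 h replicates 1 and 3 and 0.07 on replicate 2. Without replicate 2, 17 fell and 1 rose. Creld2, a reticulum protein induced by stress, was not called with all arrays but was without this one (-0.61, adjusted p = 0.00208, and -0.45, adjusted p = 0.0709, with it), as did calreticulin, Calr (-0.21, adjusted p = 0.0456, and -0.13, adjusted p = 0.404, with it). Centred over all probe sets 5 fell.

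Of 41 genes of the integrated stress response and amino acid supply, 7 fell and 1 rose (median -0.09). Nupr1, a stress-induced chromatin factor, fell from 9.03 ± 0.04 to 8.26 ± 0.17 (log2, mean ± SD, n = 3; -0.77, SE 0.09, limma adjusted p = 0.00271). Cth, which makes cysteine, fell by 0.63 (SE 0.08, adjusted p = 0.00429), and Ddit3, the factor CHOP, read 10.05, 10.25 and 10.00 and then 9.63, 9.49 and 9.44 (-0.58, SE 0.08, adjusted p = 0.00603). Gpt2, a mitochondrial alanine transaminase, fell by 0.57 (adjusted p = 0.0208, up to 0.0866 without control 4 h replicate 1 or 3 or any 24 h array). Atf5, a factor of the same response, rose by 0.59 (adjusted p = 0.046), a call lost in all single-array omissions but control 4 h replicates 1 and 2 (up to 0.159). The list score was 0.21 on both control 4 h replicates 1 and 3 and -0.08 on replicate 2, and without replicate 2, 13 members fell. With any 1 array left out between 3 and 13 did.

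Among metal and redox genes the largest falls were those of Mt2 and Hmox1. Of 14 metallothionein and zinc genes 2 fell, Mt2 above and Mt1, which went from 6.57 ± 0.21 to 6.10 ± 0.12 (log2, mean ± SD, n = 3; -0.47, limma adjusted p = 0.0368). The Mt1 call failed in all single-array omissions but control 4 h replicate 2 (up to 0.134). Promoters of both hold the core of the metal response element (TGCACNC or TGCGCNC), shown in capitals for Mt1, which stands near Mt2 on the same chromosome. The core is common, in 29.9% of all windows.
Mt1, metal response element, chr8:94179036-94179088, plus strand: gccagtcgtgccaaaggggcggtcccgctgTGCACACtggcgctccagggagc
Of 21 Nrf2 targets and redox genes 3 fell and 1 rose. Hmox1, haem oxygenase, read 9.60, 9.14 and 9.42 and then 8.55, 8.37 and 8.65 (-0.87, SE 0.11, 1.82-fold, adjusted p = 0.00443). The subunits of the enzyme that starts glutathione synthesis fell together, Gclc by 0.48 (SE 0.07, adjusted p = 0.00835) and Gclm by 0.39 (adjusted p = 0.0179, up to 0.0744 without control 24 h replicate 1 or 2). Me1, malic enzyme, rose by 0.30 (adjusted p = 0.0491), a call lost in all single-array omissions but control 4 h replicate 3 (up to 0.15).

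Sterol synthesis had the largest share of called members. Of 22 genes 11 rose and none fell (median 0.48, and 0.40 without control 4 h replicate 2). The list score was -0.35 on control 4 h replicates 1 and 3 and -0.56 on replicate 2, and between 5 and 12 members rose with any 1 array left out. Tm7sf2, a sterol reductase, read 7.34, 7.35 and 7.48 at 4 h and 8.05, 7.93 and 8.05 at 24 h (0.62, SE 0.06, limma adjusted p = 0.00171), and in Msmo1, a methylsterol oxidase, the departing array was the highest at 4 h (8.89, 8.94 and 8.88, then 9.51, 9.40 and 9.28). The sterol regulatory element, written TCACNCCAC, lay in the window of 1 of 8 called genes that had one, Hmgcs1, and in 1.22% of all windows.
Hmgcs1, sterol regulatory element, chr13:119690184-119690252, plus strand: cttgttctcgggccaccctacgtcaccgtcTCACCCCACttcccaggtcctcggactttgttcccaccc
Of 22 fatty acid genes 5 rose with all arrays and between 0 and 3 with any 1 array left out. Among 14 genes of lipid export by LXR 1 was called. It was Pltp, a phospholipid transfer protein, with 7.99, 7.59 and 7.85 and then 6.99, 6.95 and 6.95 (-0.85, SE 0.09, adjusted p = 0.00211).

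Interferon-stimulated genes rose in 9 of 45 members, with none that fell, 39 above 0 and a median of 0.16. Stat2, a subunit of the factor that interferons activate, read 8.46, 8.15 and 8.31 at 4 h and 9.43, 9.27 and 9.26 at 24 h (1.01, SE 0.09, 2.02-fold, limma adjusted p = 0.000626). Isg20, an RNA exonuclease, rose from 8.02 ± 0.03 to 8.30 ± 0.01 (log2, mean ± SD, n = 3; 0.28, adjusted p = 0.0217). Herc6, a ubiquitin-like ligase, rose by 0.76 (adjusted p = 0.0234). The remaining members called, among them the antigen transporter Tap1 (0.54), Oasl2 (0.80) and Rtp4 (0.95), which were named after their values were seen, had an adjusted p between 0.0136 and 0.045. Ifi35 gave 0.38 in 1 probe set and -0.06 in a dimmer one. Without one array between 1 and 7 members were called. The calls of Isg20 and Herc6 were lost without control 4 h replicate 3 or any 24 h array, and Isg20 also without control 4 h replicate 1 (up to 0.0969). The Ifi35 call failed without control 24 h replicate 1 or 2 (up to 0.059). The list scores at 4 h were -0.25, -0.31 and -0.26, and control 24 h replicate 3 scored 0.08 where its mates had -0.05 and -0.03. Among 28 NF-kB and acute phase genes 1 fell, Lcn2 above. The interferon response element (GAAANNGAAA) lay in 2.98% of the windows of risen genes and 3.32% of all windows.

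With all arrays as deposited, the calls among genes of energy metabolism were mostly falls. Of 42 glycolysis and hypoxia-inducible genes 5 fell and 1 rose. Pgk1, phosphoglycerate kinase, read 12.84, 12.67 and 12.78 at 4 h and 12.36, 12.41 and 12.41 at 24 h (-0.37, SE 0.06, limma adjusted p = 0.0146). Tpi1, triose phosphate isomerase, fell by 0.27 (adjusted p = 0.0236), Hilpda, a lipid droplet protein, by 0.33 (adjusted p = 0.0174), Ero1a, a reticulum oxidase, by 0.33 (adjusted p = 0.0401) and Ndrg1 by 0.34 (adjusted p = 0.0114, with 0.06 in a dimmer probe set). P4ha2, a collagen prolyl hydroxylase, rose by 0.52 (adjusted p = 0.0337). Ero1a was named after its values were seen, and a dimmer probe set of it gave -0.06. Centred over all probe sets 1 rose and 1 fell, and Pgk1, Hilpda, Tpi1 and Ero1a lost their calls. With any 1 array left out between 0 and 7 of the list fell, so no fall, that of Ero1a included, held in every omission. The falls of Pgk1, Tpi1, Hilpda and Ndrg1 were each lost without control 24 h replicate 2, Pgk1 and Tpi1 also without replicate 1, Tpi1 and Hilpda also without replicate 3 or control 4 h replicate 3, and Tpi1 also without control 4 h replicate 1 (up to 0.0847), while P4ha2 was lost in all single-array omissions but control 4 h replicates 1 and 2 (up to 0.126). Without control 4 h replicate 2, 7 fell.

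Of 88 oxidative phosphorylation genes 4 fell and 1 rose, with a median of 0.06. The 3 strongest falls were cytochrome c oxidase subunits that replace the common isoform in particular tissues. Cox7a1 read 8.60, 8.79 and 8.86 at 4 h and 7.73, 7.61 and 7.75 at 24 h (-1.05, SE 0.08, limma adjusted p = 0.000447). Cox4i2, induced by low oxygen, read 8.26, 8.19 and 7.78 and then 7.12, 7.19 and 7.21 (-0.91, SE 0.13, adjusted p = 0.00799). Cox6a2, of heart and muscle, fell by 0.53 (adjusted p = 0.0211, up to 0.0865 without control 4 h replicate 3 or any 24 h array). The fourth, Ndufaf4, an assembly factor of complex I, fell by 0.43 (adjusted p = 0.0324, up to 0.119 without any 24 h array or Hmgn5 siRNA replicate 1 or 2). Atp5l of the ATP synthase rose by 0.32 (adjusted p = 0.0498), a call lost without any 1 of the 9 arrays (up to 0.168).

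Growth arrest genes of the FoxO list rose in 5 of 43 members and fell in 1. Ccng2, cyclin G2, which accumulates in arrested cells, read 6.24, 5.60 and 6.02 at 4 h and 7.22, 7.24 and 7.11 at 24 h (1.24, SE 0.13, 2.36-fold, limma adjusted p = 0.00209). Trp53inp2, an autophagy factor, rose by 0.61 (SE 0.09, adjusted p = 0.00823). Cdkn2d, the p19 inhibitor of cyclin D kinases, read 6.83, 6.95 and 6.96 and then 7.33, 7.41 and 7.29 (0.43, SE 0.06, adjusted p = 0.00852). Cdkn1a, the p21 inhibitor, went down by 0.34 (adjusted p = 0.0468), and Wipi1 of autophagosomes rose by 0.29 (adjusted p = 0.0306). The Cdkn1a call failed in all single-array omissions but control 4 h replicate 2 (up to 0.157), and the Wipi1 call failed without any 1 of the 24 h arrays, control 4 h replicate 1 or 3 or Hmgn5 siRNA replicate 1 or 2 (up to 0.103). The forkhead element (GTAAACA) lay in 3.91% of the windows of risen genes and 3.14% of all.

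Of 53 DNA replication and G1/S genes 1 rose, E2f1 (0.39, limma adjusted p = 0.046), 42 lay above 0 and the median was 0.15, or 0.08 without control 4 h replicate 2. The E2f1 call failed in all single-array omissions but control 4 h replicate 1 (up to 0.155). Of 59 G2 and mitosis genes 1 fell, Pttg1, securin, from 7.26, 7.40 and 7.22 to 6.53, 6.55 and 6.88 (-0.64, adjusted p = 0.0177, up to 0.0761 without control 24 h replicate 1 or 2). The mitosis list was split within the 24 h arrays: replicate 3 scored 0.22 and its mates -0.12 and -0.10, while all 4 h arrays scored between 0.03 and 0.04. Its median was -0.02, or 0.02 when centred over all probe sets, and between -0.11 and 0.07 with any 1 array left out.

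Of 114 chromatin remodellers and histone-modifying enzymes 7 fell and 2 rose. Between 2 and 6 fell with any 1 array left out, and 4 fell without control 4 h replicate 2. Centred over all probe sets the counts were 3 and 2, and the median of -0.02 became 0.02. Besides Hdac9, Sirt1, an NAD-dependent deacetylase, fell (8.19, 8.16 and 8.21, then 7.80, 7.82 and 7.63; -0.43, SE 0.07, limma adjusted p = 0.00833). Brd2, a reader of acetylated histones, fell by 0.30 (adjusted p = 0.0297), and Ezh1, a methyltransferase of Polycomb, rose by 0.34 (adjusted p = 0.0257). The calls of Brd2 and Ezh1 were lost without control 4 h replicate 1 or 3 or any 24 h array, and Brd2 also without Hmgn5 siRNA replicate 1 (up to 0.106). Of 46 histones 2 fell. H1f10, a linker histone, read 9.62, 9.66 and 9.64 and then 9.18, 9.11 and 9.25 (-0.46, SE 0.07, adjusted p = 0.00832). H2bc18 fell by 0.52 (adjusted p = 0.0328, up to 0.127 without control 4 h replicate 2 or 3, any 24 h array or Hmgn5 siRNA replicate 1). Hmgn5, the nucleosome-binding protein that the series targets, read 4.53, 4.23 and 4.57 and then 4.77, 4.66 and 4.69. These values are low, as the median gene stood at 5.77 at 4 h. All its 24 h arrays were above those at 4 h, and the times were apart in 21.3% of all genes. The difference of 0.27 (SE 0.09) did not pass in limma (adjusted p = 0.151).

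Lysosomal genes gave 4 rises and 1 fall of 59, and proteasome genes none of 47. Ctsl, a cathepsin, fell from 9.38, 9.28 and 9.53 to 8.84, 8.84 and 8.98 (-0.51, SE 0.08, limma adjusted p = 0.00776), and Gla, a galactosidase, rose from 8.73, 8.79 and 8.78 to 9.14, 9.14 and 9.33 (0.44, SE 0.08, adjusted p = 0.0146). Atp6ap1 of the proton pump rose by 0.39 (adjusted p = 0.0211) and Gusb, a glucuronidase, by 0.38 (adjusted p = 0.0274). Both calls failed without any 1 of the 24 h arrays and Gusb also without Hmgn5 siRNA replicate 1 or 2 (up to 0.101). Psme3, a proteasome activator, had the smallest p of its list (-0.22, adjusted p = 0.0691).

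In the circadian clock list 3 of 19 genes rose and 2 fell. Ciart, a clock repressor, fell by 0.60 (limma adjusted p = 0.0175) and Cry1, a core repressor, by 0.38 (adjusted p = 0.032). Dbp, an output factor of the clock, rose by 0.40 (adjusted p = 0.0345) and Arntl2, a BMAL paralogue, by 0.37 (adjusted p = 0.0473). None of these 4 calls held with each array left out in turn: Ciart was lost without control 4 h replicate 3 or control 24 h replicate 1 or 2 (up to 0.072), and the other 3 without control 4 h replicate 3 or any 24 h array, among others (up to 0.157). The times lie 20 h apart on the clock, and 2 times cannot show a rhythm.

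The array that stood apart differed in direction by level and by gene group. Control 4 h replicate 2 lay outside the range of its mates in 76.8% of genes, while other control arrays did so in 54.1% to 64.4%. It exceeded the mean of its mates more than 2-fold in 56 genes and fell below it by as much in 41. The median departure was 0.05 in the dimmest of 3 equal bins of genes by level and -0.07 in the brightest. Its largest excesses were in genes of sensory receptors and clustered protocadherins. Tas2r108, a taste receptor, read 5.62 against 4.11 and 4.17, and Pcdhb18, a protocadherin, 7.06 against 5.75 and 5.43. Tas2r135, Pcdhb13 and Adam4 followed with departures of 1.41, 1.27 and 1.26.

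Its largest deficits were in Mrm1, a mitochondrial RNA methyltransferase (6.01 against 7.50 and 7.60), Zfp768 (5.82 against 7.19 and 7.33) and the peptidase Dpp3 (8.06 against 9.46 and 9.48). Camk2n2, an inhibitor of a calcium-dependent kinase, and Tubb6 departed by -1.40 and -1.29. None of the 10 genes was called over time with all arrays. By list, 37 of 41 integrated stress genes and 40 of 53 immediate-early genes lay below their mates on it, with median departures of -0.29 and -0.28. Across 15358 protein-coding genes with a promoter window, which are not independent, its departure correlated with the GC content of the window at r = -0.19. For control 4 h replicates 1 and 3 the values were 0.14 and 0.15. Each array enters the means that its mates are set against, so these opposite signs are not separate trends of the mates. Against the 24 h mean the median of called rises was -0.44, -0.56 and -0.45 on control 4 h replicates 1 to 3, and that of called falls 0.39, 0.47 and 0.39. The called genes were in part chosen by these values. A gene with replicate 2 at the 24 h level has a wide spread at 4 h and is less readily called. The medians therefore cannot show whether replicate 2 lay between the times. List scores on the same 3 arrays went both ways, at 0.21, -0.08 and 0.21 for integrated stress and -0.35, -0.56 and -0.35 for cholesterol synthesis.

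**Figure D5:**
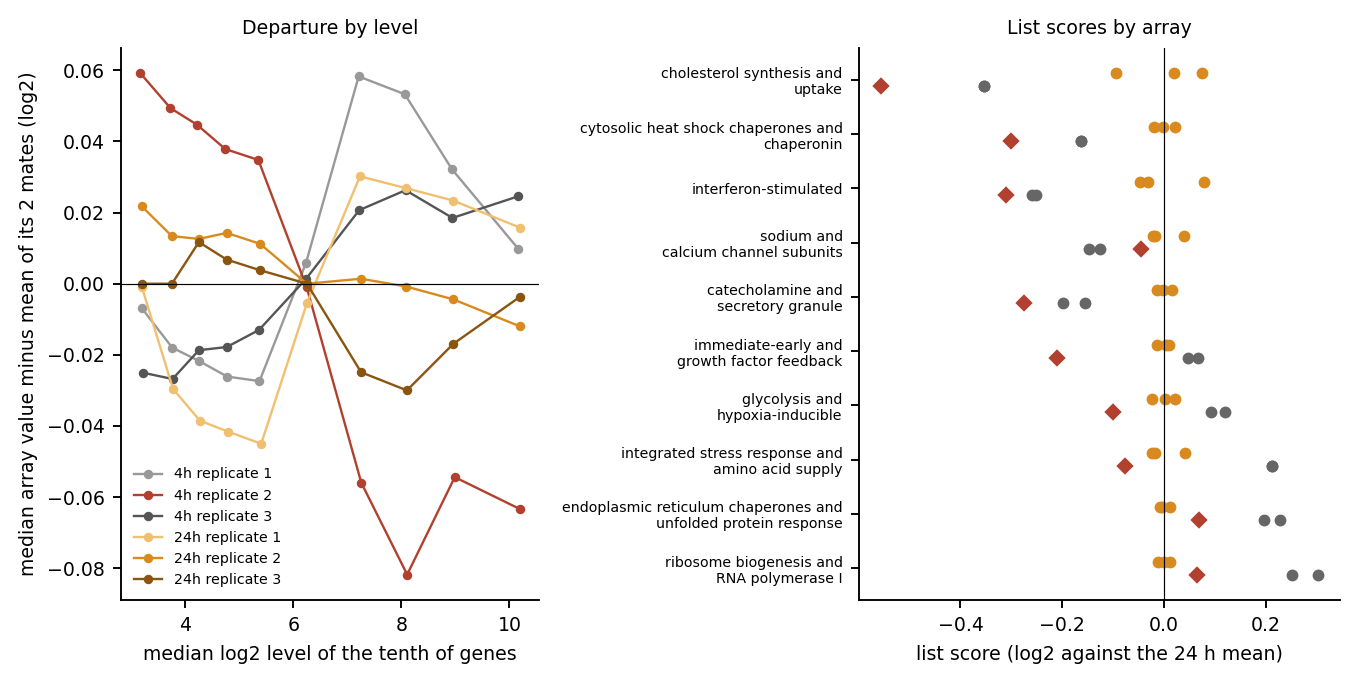
Left, the median over each of 10 equal bins of genes, ordered by level, of an array's value minus the mean of its 2 mates (log2), for the 6 control arrays. Right, list scores (mean over list genes of the array value minus the 24 h mean, log2) with control 4 h replicate 2 as a red diamond, the other 4 h arrays in grey and 24 h arrays in orange. Control 4 h replicate 2 is high among dim genes and low among bright ones, and on the integrated stress list it scores -0.08 where the other 4 h arrays score 0.21.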

How the data were processed

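RNA of 9 samples was hybridised to Affymetrix whole-transcript arrays, 270 ng each, per the labels' protocols. Per probe set, the authors deposited log2 expression values made with RMA in the oligo package, per the submitters' processing notes, which name no version. Of 41345 probe sets 23521 carried 1 gene symbol, 1814 several and 16010 none, and 23328 matched RefSeq. Each of 22180 genes took its probe set of highest mean over the 9 arrays, which 1082 genes had to choose among.

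All 9 arrays entered 1 limma fit (version 3.58.1, R 4.3.3), which had 6 residual and 3.55 prior degrees of freedom, and the contrast was control siRNA at 24 h minus 4 h. Benjamini-Hochberg adjustment ran over all genes, with a call at an adjusted p under 0.05. The fit was tested on simulated data. Genes named were the 15 largest called rises and falls, passing over clone, olfactory and small RNA symbols, up to 4 called members of each list by smallest p and 1 that moved against them, and others said to be chosen after their values were seen. The members and lists were chosen with earlier results of these data known. Alternatives were the replicate block, arrays, weights, scaling, dim genes, probe set choice and each array left out. The number of arrays limits the precision.

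No replicate block entered the main fit, and whether equal replicate numbers mark samples handled together is not settled. Across groups, same-numbered arrays correlated at 0.009 to 0.285 in their deviations from group means. Differently numbered arrays correlated at -0.221 to 0.081. The fit with a replicate block is given below as an alternative.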

Additional observations from a re-analysis of the deposited data

How the results depend on the processing

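Set against other settings, values of the named genes kept direction and side of the threshold in 2810 comparisons, lost the call in 485, gained it in 21 and reversed in none. Fitting the 6 control arrays alone gave 161 rises and 119 falls, and without control 4 h replicate 2 these became 263 and 244. Array weights gave 807 and 878. A minimum change of 1.5-fold gave 152 and 81. Centring over all probe sets, added after the data had been seen, gave 309 falls. With 1 array left out, rises ranged from 178 to 586 and falls from 132 to 652. The cause was not tested, beyond the fewer samples in these fits. Same-numbered control samples at 4 h and 24 h correlated at 0.038, 0.045 and 0.062 in their deviations, and differently numbered ones at -0.054 to -0.012. For control and Hmgn5 siRNA at 24 h the same-numbered values were 0.184, 0.089 and 0.285, and the others -0.221 to 0.081. The replicate block gave 451 rises and 442 falls, with 780 of the 963 calls shared. Of 146 called genes named by the rule, 77 kept their call with each array left out and 70 under every alternative. Signal over background was not analysed here.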
